A study of Mus musculus with 6 samples.

Results

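The RNA of 10 genes for mechanosensitive ion channels was followed in mouse cochlear organoids kept in soft or in stiff gels. The set was chosen by name as Piezo1, Piezo2, Trpv2, Trpv4, Trpm4, Trpm7, Pkd1, Pkd2, Tmem63a and Tmem63b, and all 10 were among the 15016 genes of the deposited table, with no filter on low values. There were 3 libraries from soft gels and 3 from stiff gels, made from organoids of wild-type inner ear progenitor cells of the cochlea (genotype WT; the sources used here give neither age nor strain). Both groups were expanded with EGF, bFGF, IGF, CHIR99021 (3 µM), valproic acid, 2-phospho-L-ascorbic acid and the small molecule 616452, and were moved to a differentiation medium with CHIR99021 (3 µM), which raises Wnt signalling, and LY411575 (5 µM), which stops the cleavage of Notch by gamma-secretase. The gel was therefore the labelled difference between the groups, and it was set at the differentiation stage. Whether the replicates were separate cultures is not in the labels. The p-values therefore speak of the scatter among these 6 libraries, part or all of which may be technical. In bulk RNA, fewer cells of a type and less RNA per cell cannot be told apart.

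Mechanosensitive channels turn stretch of the membrane into ion flow. PIEZO1 and PIEZO2 are large trimeric channels that pass cations, calcium among them; PIEZO1 is known from vessels and epithelia that sense flow and stretch, PIEZO2 from touch and position sense, and PIEZO2 also carries a current at the apical surface of developing hair cells. TRPV4 responds to swelling and stretch, TRPM4 passes sodium after a calcium rise, polycystin-1 and polycystin-2 form a complex in the primary cilium, and TMEM63A and TMEM63B belong to the OSCA/TMEM63 family of stretch-gated channels. The comparison asks how the RNA of these sensors differed between matrices of unlike stiffness.

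Reads were from libraries that keep no strand, so it was checked which bases the 10 genes share with each other and with their neighbours (GENCODE M21, GRCm38, the build mm10 that the submitters name). The longest exact run common to any of the 45 pairs of members was 49 bases, between Trpv2 and Pkd1, and Piezo1 and Piezo2 shared at most 17. The closest stretch of coding sequence in the Trpv pair is printed to show how little a read of one could pass for the other. Capitals mark the longest shared coding run, 17 bases, with 21 flanking bases on each side; both windows cross a splice junction.
Trpv2, chr11:62597006-62598260, plus strand: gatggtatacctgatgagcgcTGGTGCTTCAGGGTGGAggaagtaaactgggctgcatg
Trpv4, chr5:114623703-114625042, minus strand: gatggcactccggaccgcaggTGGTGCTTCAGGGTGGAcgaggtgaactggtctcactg
Aligned base by base, 42 of 59 positions (71.2%) were identical. Counted in words of 50 bases, 0 were shared between members.

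With neighbours the picture was different for some members. Piezo1 lies on chromosome 8 (122481698 to 122551329, minus strand) with its 3′ end over the plus-strand gene Ctu2, which encodes a tRNA-modifying enzyme, and 22.7% of the 50-base words of its transcripts also occur in Ctu2 transcripts when both strands are read. Over all annotated exons, 2441 bases of Piezo1 (24.57%) lie in exons of Ctu2. Between the longest coding transcripts of both genes alone, the overlap was 990 of the 8219 bases of Piezo1 (12.05%). The overlaps that follow are again over all annotated exons. Pkd1 (chromosome 17, 24549834 to 24596508) overlaps Tsc2 over 693 exon bases (3.98%), and Tmem63b (chromosome 17, 45660171 to 45686905) has 288 exon bases over an antisense gene (Gm16172) and 106 over Mrpl14. Piezo2 (chromosome 18, 63010213 to 63387183) and the genes Trpv4 and Trpm7 shared 0 words with any other gene. Trpv2 shared 97 of its 4567 words (2.12%) with other genes, spread over many of them. The part of reads from such genes in the Trpv2 values was not tested.

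**Figure D1:**
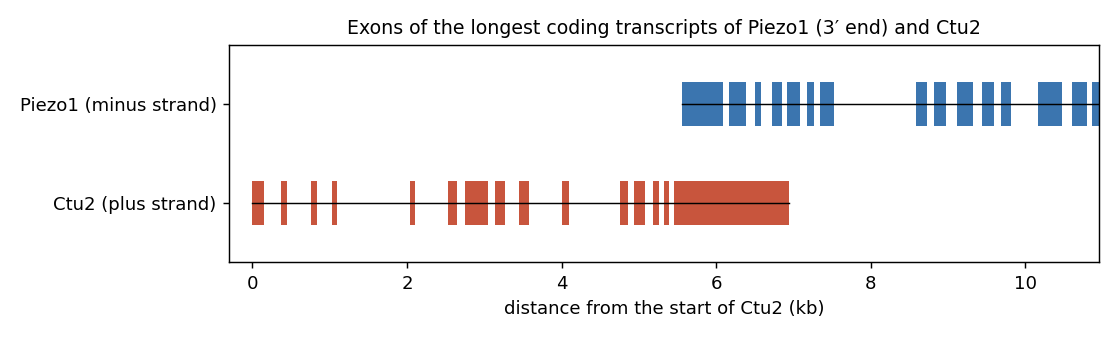
Exons of the longest coding transcripts of Piezo1 (blue, minus strand) and Ctu2 (red, plus strand) against the distance from the start of Ctu2 in kb. The last exons of Piezo1 lie over the long final exon of Ctu2. These transcripts share 990 bases in which unstranded reads of the genes cannot be told apart. Over all annotated exons of the genes, not drawn here, 2441 bases are shared.

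The channels were present at very different levels, which were compared in FPKM (fragments normalized for transcript length and sequencing depth). Tmem63b was the most abundant, with a mean of 31.7 FPKM over the 6 libraries, above 85.4% of the listed genes. It was followed by Trpm7 (19.4 FPKM), a channel with a kinase domain that passes magnesium and calcium, Trpv4 (13.8 FPKM), Pkd2 (13.1 FPKM), Pkd1 (8.42 FPKM), Trpm4 (7.19 FPKM), Piezo1 (7.16 FPKM), Tmem63a (3.74 FPKM), Piezo2 (0.667 FPKM) and Trpv2 (0.135 FPKM). Neighbours in this order did not overlap in any library except in 3 places: Trpv4 and Pkd2, Pkd1 and Trpm4, and Trpm4 and Piezo1 had overlapping ranges. Piezo1 and Trpm4 were level, with Trpm4 higher in 3 of the 6 libraries. The order depends on the gene lengths that the authors divided by. The length implied for Tmem63a was 8.15 kb, 1.82 times the 4.49 kb of its GENCODE exons, and the factor was 1.29 for Pkd2, 0.420 for Trpm4, 0.633 for Piezo2, 0.699 for Tmem63b and between 0.749 and 0.901 for the other 5 genes. Levels of the genes against each other, and ratios between them, are uncertain to that degree. The ratio of the FPKM of 1 gene between gels does not depend on the length. Its change on a log2(FPKM + 1) scale does, most of all for a low gene such as Piezo2. A filter set in FPKM depends on the length too. Summed over the 10 genes, the level was 100 to 111 FPKM in soft gels and 101 to 109 FPKM in stiff gels, with overlapping groups.

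**Figure D2:**
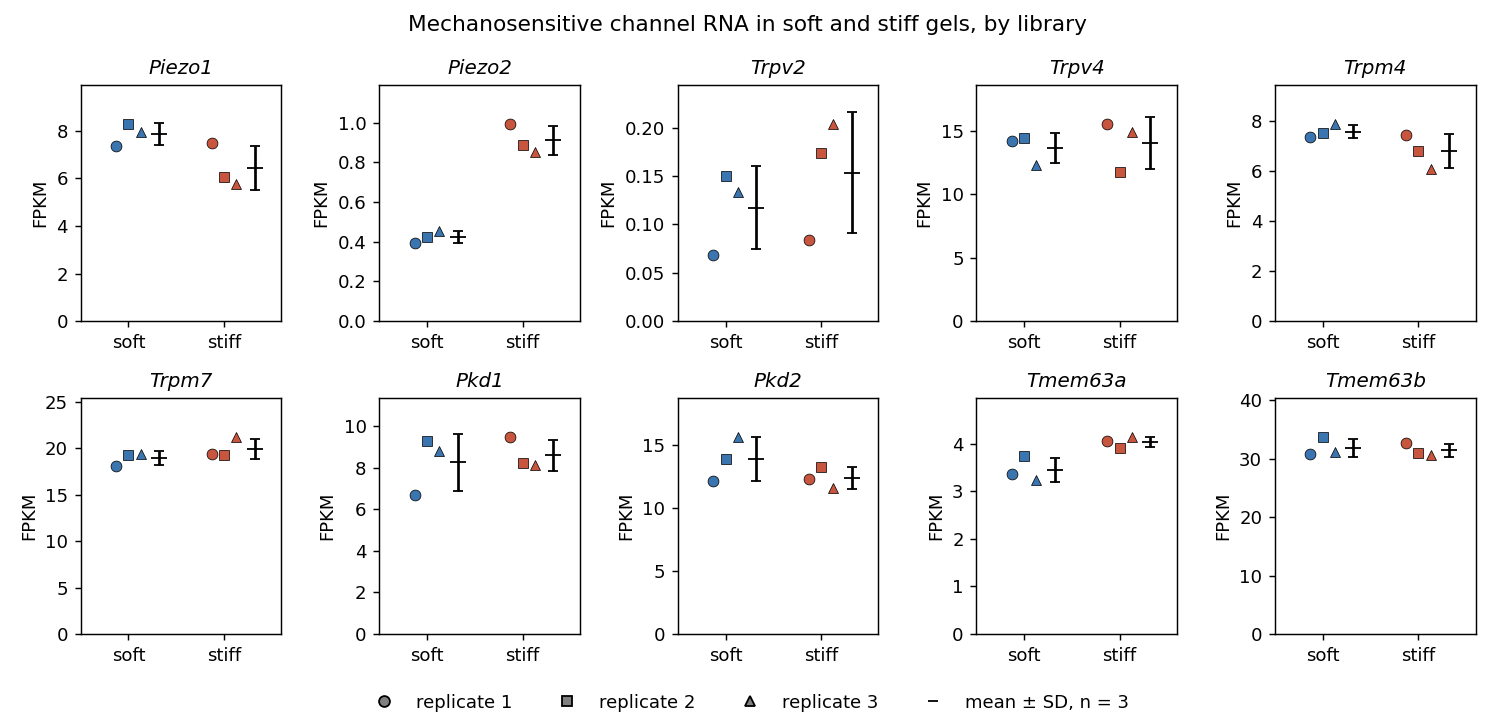
FPKM of each of the 10 channel genes in the 3 soft libraries (blue) and the 3 stiff libraries (red), with the replicate number as the marker shape and the mean ± SD at the side; each vertical axis starts at 0. Piezo2 sits at 0.393 to 0.453 in soft and 0.852 to 0.992 in stiff gels, Tmem63a also has separate groups, and the other 8 genes overlap.

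Piezo2 was the 1 channel gene whose RNA differed between gels by the test, and it was higher in stiff gels. It stood at 0.393, 0.422 and 0.453 FPKM in soft replicates 1 to 3 and at 0.992, 0.890 and 0.852 FPKM in stiff replicates 1 to 3. Every stiff library was above every soft library, and the lowest stiff value was well clear of the highest soft one. The mean went from 0.423 ± 0.030 FPKM (SD, n = 3) to 0.911 ± 0.072 FPKM (SD, n = 3), a ratio of 2.16. Adding 1 FPKM before taking logs shrinks the change of so low a gene. On that scale the log2 fold change was 0.43 ± 0.05 (SE; limma, Benjamini-Hochberg adjusted p = 0.016). Although the FPKM is low, the transcript is long: 74, 82 and 88 reads stood behind the soft values and 192, 166 and 149 behind the stiff values. The counting error of 1 library, 10.7% to 11.6% in soft and 7.22% to 8.19% in stiff gels, was larger than the spread between libraries in soft gels (7.04%) and about as large in stiff gels (7.95%). In the authors' deposited table Piezo2 had a log2 fold change of 1.08 ± 0.20 (SE) with q = 3.64e-06.

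Among all 15016 genes 288 were called higher and 221 lower in stiff gels (limma adjusted p under 0.05, 3.39% of the genes; 1.92% higher and 1.47% lower), so that 56.6% of the calls were higher. By limma-voom on reads rebuilt from the FPKM it was 444 and 530 (6.49%), with 45.6% higher. Of the 10 channels 1 was called higher and 0 lower by either test, and 1 had q under 0.05 in the authors' deposited table, where 8.12% of the genes did. Piezo2 had an adjusted p of 0.00444 with limma-voom and a limma adjusted p of 0.0211 with a pseudocount of 0.1 (log2 fold change 0.95), and was called under every alternative that kept it, except when a library was left out; a filter of at least 1 FPKM in either group removes it. It was called without soft replicate 1 (limma adjusted p = 0.0115) and not without soft replicate 2 (0.0854), soft replicate 3 (0.0569), stiff replicate 1 (0.073), stiff replicate 2 (0.0542) or stiff replicate 3 (0.0585), with a log2 fold change between 0.40 and 0.45 throughout. In those 5 fits the calls over all genes fell to between 3 and 31 higher and between 1 and 9 lower.

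Piezo1, the paralog that was more abundant in every library, was not called. It stood at 7.35, 8.28 and 7.97 FPKM in soft and at 7.51, 6.06 and 5.78 FPKM in stiff gels. Stiff replicates 2 and 3 were below all soft libraries, but stiff replicate 1 lay above soft replicate 1, so the groups overlapped. The mean was 7.87 ± 0.47 FPKM (SD, n = 3) in soft and 6.45 ± 0.93 FPKM (SD, n = 3) in stiff gels. The log2 fold change was -0.26 with a 95% interval from -0.49 to -0.02 (limma adjusted p = 0.209, limma unadjusted p = 0.0355). No alternative called Piezo1, with an adjusted p of 0.0922 by limma-voom and limma adjusted p from 0.124 to 0.479 in the others. The authors' deposited table gives -0.31 with q = 0.0678. Ctu2, whose exons lie under the 3′ end of Piezo1, was at 5.08, 4.92 and 4.70 FPKM in soft and 5.87, 5.71 and 6.15 FPKM in stiff gels, higher in all stiff libraries than in any soft library and not called (log2 fold change 0.23, limma adjusted p = 0.128). How reads in the shared exons were assigned was not given in the sources used here, and the part of Ctu2 in the Piezo1 values was not tested.

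Set against each other within a library, the PIEZO genes drew closer in stiff gels. Piezo1 had 18.7, 19.6 and 17.6 times the FPKM of Piezo2 in soft replicates 1 to 3 and 7.57, 6.81 and 6.78 times in stiff replicates 1 to 3. These ratios did not overlap, which largely restates the Piezo2 difference given above. Piezo1 remained the more abundant of the pair in all 6 libraries.

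**Figure D3:**
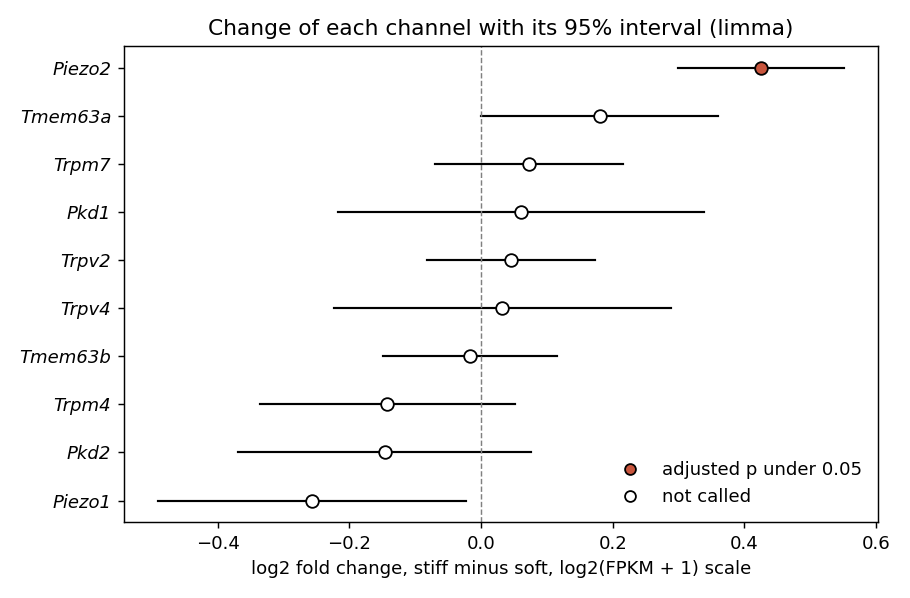
Difference of each channel gene in mean log2(FPKM + 1) between stiff and soft gels, as a point with its 95% interval as a line (limma, 3 libraries a group). The filled point is Piezo2, called at an adjusted p of 0.016; the other 9 were not called, with Piezo1 the lowest at -0.26.

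The TRP channels showed no call. Trpv4, gated by swelling, stretch and warmth, was at 14.2, 14.4 and 12.3 FPKM in soft and 15.5, 11.7 and 14.9 FPKM in stiff gels. Both the highest and the lowest value came from stiff gels. Its log2 fold change was 0.03 with a 95% interval from -0.22 to 0.29 (limma adjusted p = 0.916), or ratios of stiff to soft from 0.856 to 1.22 on this scale. Trpm7 was at 18.1, 19.3 and 19.4 FPKM in soft and 19.4, 19.3 and 21.2 FPKM in stiff gels, and its interval, from -0.07 to 0.22, was among the narrow ones (limma adjusted p = 0.578). Trpm4, the calcium-activated sodium channel, was at 7.37, 7.52 and 7.88 FPKM in soft and 7.47, 6.82 and 6.11 FPKM in stiff gels. As with Piezo1, stiff replicate 1 lay within the soft range and the other stiff libraries below it (log2 fold change -0.14, 95% interval -0.34 to 0.05, limma adjusted p = 0.40). Trpv2, a relative of TRPV4 known from neurons, muscle and immune cells, was near the limit of detection, with 4, 9 and 8 reads in soft and 5, 10 and 11 reads in stiff gels. No difference in Trpv2 was called (limma adjusted p = 0.718). With counting errors of 30.1% to 50.0% per library, a small difference could not be resolved, and the smallest detectable one was not computed.

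The polycystin genes also stayed uncalled. Pkd1, which encodes the large receptor-like polycystin-1, was at 6.69, 9.27 and 8.79 FPKM in soft and 9.47, 8.21 and 8.12 FPKM in stiff gels. Soft replicate 1 was the lowest of the 6 libraries and stiff replicate 1 the highest (log2 fold change 0.06, 95% interval -0.22 to 0.34, limma adjusted p = 0.84). Without soft replicate 1 the sign turned, at -0.07 (limma adjusted p = 0.709). Pkd2, the channel-forming partner, was at 12.1, 13.8 and 15.6 FPKM in soft and 12.3, 13.3 and 11.6 FPKM in stiff gels. The groups overlapped, with a log2 fold change of -0.15 (95% interval -0.37 to 0.08, limma adjusted p = 0.457). Over the whole table the soft libraries were not alike. Soft replicate 1 lay nearer to the stiff gels: on the first principal component (62.4% of the variance over 11658 genes) it was at -1.84, against -15.9 and -18.7 for soft replicates 2 and 3 and 7.76 to 17.1 for the stiff libraries.

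Tmem63a and Tmem63b differed in level and in how their groups lay. Tmem63a was at 3.36, 3.74 and 3.24 FPKM in soft and 4.05, 3.91 and 4.13 FPKM in stiff gels. All stiff libraries were above all soft ones, but the step was small, from 3.45 ± 0.26 to 4.03 ± 0.11 FPKM (SD, n = 3), and it was not called (log2 fold change 0.18 ± 0.08 SE, limma adjusted p = 0.245; unadjusted p = 0.0493). The authors' deposited table gives 0.20 with q = 0.373. Tmem63b was at 30.8, 33.7 and 31.1 FPKM in soft and 32.7, 31.0 and 30.7 FPKM in stiff gels, with an interval from -0.15 to 0.12 around a log2 fold change of -0.02 (limma adjusted p = 0.918). As ratios of stiff to soft on this scale, the bounds were 0.902 and 1.08. In all, 2 of the 10 channels had groups that did not overlap, where 24.8% of all genes did, and 3 had an unadjusted p under 0.05, where 20.3% did. The median log2 fold change was 0.04 over the 10 channels and 0.02 over all listed genes.

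**Figure D4:**
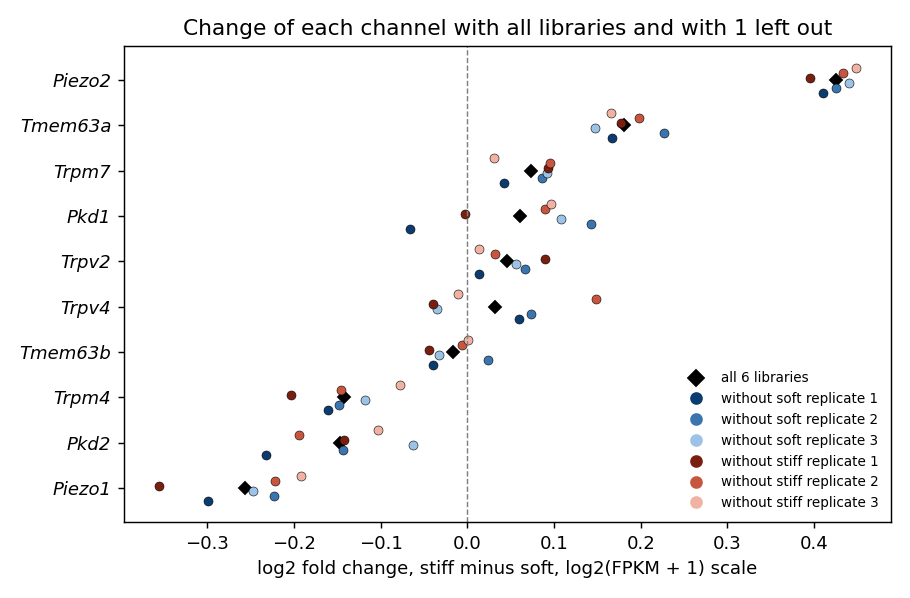
Log2 fold change of each channel gene (stiff minus soft, log2(FPKM + 1) scale) with all 6 libraries (diamond) and with 1 library left out (circles, colour by library). Piezo2 stays between 0.40 and 0.45 and Piezo1 between -0.36 and -0.19, whereas Pkd1, Trpv4 and Tmem63b cross 0.

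Further channels with reported mechanical gating, and relatives of such channels, were read from a list of 32 genes. Mechanical gating is not established for every gene on that list. Of the 32 genes, 22 were listed in the table. Of these 22, 0 were called by limma or by limma-voom, 7 had an unadjusted p under 0.05 (4 higher, 3 lower), where 20.3% of all genes did, and the median log2 fold change was 0.02. The lowest adjusted p in each direction belonged to Trpc1, a canonical TRP channel at 0.743 and 1.12 FPKM in soft and stiff gels (log2 fold change 0.28, limma adjusted p = 0.0534), and to Trpm6, the magnesium channel related to TRPM7, at 0.505 and 0.309 FPKM (log2 fold change -0.20, limma adjusted p = 0.0763). Without soft replicate 1, where 9.68% of all genes were called, Trpc1 was called higher (limma adjusted p = 0.0286), and the potassium channel gene Kcnk2 (0.0296) and Tmem120a (0.0198), both named after their values were seen, were called lower. Kcnk2, which encodes the stretch-activated channel TREK-1, stood at 21.5, 28.4 and 27.9 FPKM in soft and 18.4, 22.9 and 18.4 FPKM in stiff gels, more RNA than any PIEZO gene. It had q = 0.0155 in the authors' deposited table.

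The transduction channel of hair cells is a different machine, built on TMC1 and TMC2 and opened by the tip link. Of 12 genes for it and its anchors 9 were listed, and 1 was called higher and 0 lower (1.92% and 1.47% over all genes), with a median log2 fold change of -0.000625. The called gene was Ush1c, which encodes the scaffold harmonin, at 25.7, 28.1 and 21.04 FPKM in soft and 40.5, 36.6 and 36.7 FPKM in stiff gels (log2 fold change 0.59 ± 0.10 SE, limma adjusted p = 0.0294). The call was lost without any single library other than soft replicate 1, with limma adjusted p of 0.0854 and 0.0613 without soft replicates 2 and 3 and 0.109, 0.076 and 0.0948 without stiff replicates 1 to 3. Of genes named after their values were seen, the pore gene Tmc1 was at 0.385 and 0.368 FPKM, below Piezo2 in stiff gels (limma adjusted p = 0.887), and the tip link genes Cdh23 and Pcdh15 were at 0.078 and 0.025 FPKM and at 0.25 and 0.347 FPKM. Myo1c, named in the same way, went down, from 9.26 FPKM in soft to 6.42 FPKM in stiff gels (log2 fold change -0.46). It was not called by limma (adjusted p = 0.086) but was by limma-voom (adjusted p = 0.0294). Its q in the authors' deposited table was 0.000776.

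Partners of the channels were called in 2 of 13 listed cases, both higher, where 1.92% of all genes were called higher. This list, like the others, was chosen with earlier results of these data known, so the count is a description only. Cav1, the coat protein of caveolae, the membrane pits in which stretch channels are often studied, went from 38.1 ± 2.40 to 92.0 ± 2.83 FPKM (SD, n = 3) and stayed called whichever library was left out. Its limma adjusted p was 0.000638, at a log2 fold change of 1.25. Pacsin3, a membrane-bending protein that binds TRPV4, was at 14.0, 14.0 and 12.4 FPKM in soft and 16.2, 17.9 and 18.5 FPKM in stiff gels (log2 fold change 0.35 ± 0.08 SE, limma adjusted p = 0.0498). Pacsin3 lost its call without soft replicate 2 (limma adjusted p = 0.135), soft replicate 3 (0.158), stiff replicate 1 (0.0962), stiff replicate 2 (0.13) or stiff replicate 3 (0.165), and with median-ratio scaling (0.0534). Mdfic, named for its role as an auxiliary subunit of PIEZO channels after its values were seen, was at 5.72 ± 0.38 and 5.30 ± 0.31 FPKM (SD, n = 3; limma adjusted p = 0.589). By limma-voom 2 partners were called lower, namely Bicc1 (12.4 and 8.14 FPKM; adjusted p = 0.0276), which encodes a ciliary RNA-binding protein, and Anxa2 (174 and 116 FPKM; 0.034), both named after their values were seen. Downstream of calcium entry, 0 of 23 calcium effector genes (calmodulins, calcineurin, NFAT factors, calpains and store channels) were called by limma or by limma-voom. Of these 23, 2 had a limma unadjusted p under 0.05, where 20.3% of all genes did. They were Camk2g at 14.8 and 16.5 FPKM (limma adjusted p = 0.187) and Capns1 at 183 and 162 FPKM (0.143). The list's median log2 fold change was 0.02.

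**Figure D5:**
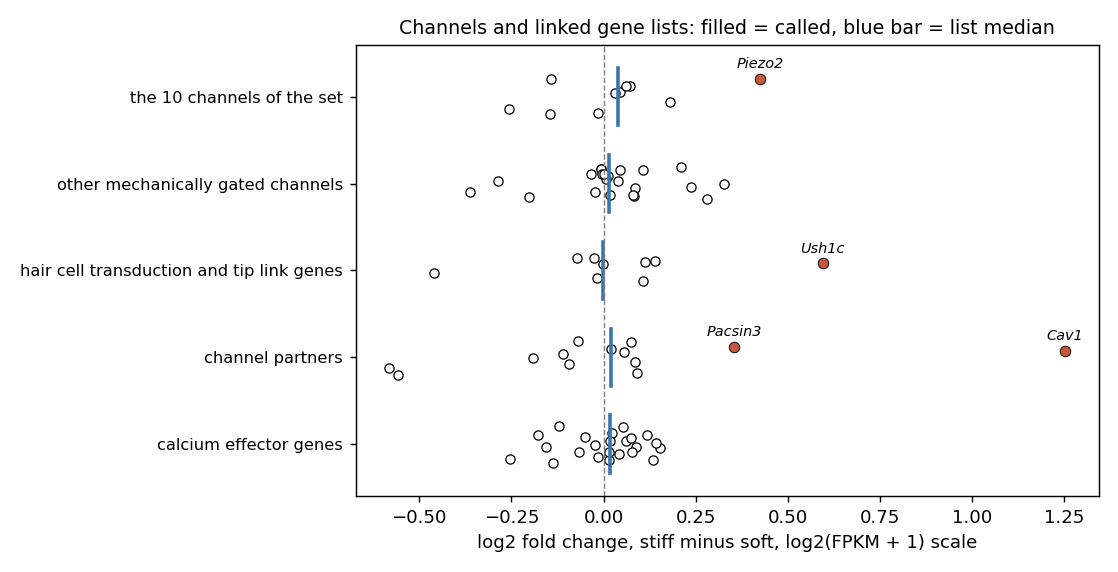
Log2 fold change (stiff minus soft, log2(FPKM + 1) scale) of each listed gene in the 10-channel set and in the lists of other channels, hair cell transduction genes, channel partners and calcium effectors; vertical scatter within a row is only for display. Filled points were called (limma adjusted p under 0.05), which are Piezo2, Ush1c, Pacsin3 and Cav1, and the blue bars, the list medians, lie between -0.000625 and 0.04.

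Genes that varied most like each PIEZO gene over the 6 libraries were found by Pearson correlation of log2(FPKM + 1) among 11650 genes with a mean of at least 1 FPKM, as a description only, since all points share their libraries and depth. With 6 libraries and so many genes searched, the highest r are bound to be high. For Piezo2, any gene with a like step between gels has a high r. For Piezo2 these included Tmem106c (r = 0.997), the Kruppel-like factor gene Klf4 (0.992), the tight junction gene Cldn6 (0.992) and the secreted protease gene Adamts12 (0.992). Klf4 stood at 2.44, 2.604 and 2.57 FPKM in soft and 3.92, 3.76 and 3.43 FPKM in stiff gels. For Piezo1 they were Bcar1 (0.997), an adaptor of focal adhesions, Gadd45b (0.992), Myo19 (0.991), Ash1l (0.989) and the clathrin heavy chain gene Cltc (0.987), none of which was called (limma adjusted p from 0.179 to 0.643).

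The labelled cells were checked against marker lists. Over all genes, 1.92% were called higher and 1.47% lower, and 24.8% of single genes had groups that did not overlap. The summed levels of supporting cell, hair cell and mesenchyme markers were higher in every stiff than in every soft library, as Piezo2 was, those of neuron markers were lower, and those of the other lists overlapped. Supporting and prosensory cell markers were present, with 12 of 12 listed and Epcam at 229 and 268 FPKM; 6 were called higher and 0 lower, and their summed level was 418 to 528 FPKM in soft and 613 to 675 FPKM in stiff gels. Of the 12 hair cell markers 7 were listed, 0 were called, and the sum was 30.8 to 32.9 FPKM in soft and 35.3 to 42.7 FPKM in stiff gels. Most of that gap was Calb2 (5.03 and 10.55 FPKM, limma adjusted p = 0.0748), and 3 of the 7 had a negative log2 fold change, Espn among them (2.95 and 2.19 FPKM, limma adjusted p = 0.17). Atoh1 and Pou4f3 were among the 5 that were not listed, and Otof was at 0.0465 FPKM or less in every library. Neuron markers (8 of 10 listed, 1 called lower) summed to 13.2 to 20.9 and 10.2 to 11.9 FPKM, with Snap25 at 0.0919 FPKM or less in soft and listed at 0 in all stiff libraries. Of 8 Merkel cell markers 5 were listed and 2 called higher, Isl1 and Sox2, with overlapping sums of 681 to 774 and 679 to 786 FPKM that came almost wholly from the keratins Krt8 and Krt18. Sox2 is also 1 of the 6 called supporting and prosensory cell markers, and Krt20, Atoh1 and Vip were not listed. Mesenchyme markers were abundant too; 11 of 11 were listed, 1 was called lower (Col1a2), and the sums were 616 to 744 and 770 to 792 FPKM. The gap between these sums came from Lum (326 and 411 FPKM) and Dcn (125 and 181 FPKM), while 6 of the 11 had a negative log2 fold change, Col3a1 among them (72.7 and 35.1 FPKM, limma adjusted p = 0.118). Glial markers (7 of 8 listed, 2 called higher) summed to 97.1 to 129 and 124 to 149 FPKM. Endothelial markers (7 of 9 listed, 1 called lower) had overlapping sums of 392 to 458 and 341 to 426 FPKM, nearly all of it Emcn, with Pecam1 at 0.134 FPKM or less. Blood and immune markers (3 of 10 listed) and melanocyte markers (3 of 6 listed) had 0 calls and sums of at most 7.06 and 1.55 FPKM. The part of these cell types in the Piezo2 difference was not tested.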

How the data were processed

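RNA of 6 libraries was sequenced on an Illumina HiSeq instrument after TruSeq v2 preparation, per the labels' protocols. The authors aligned with TopHat2 2.1.1 to mm10 and used DESeq2, per the submitters' processing notes, whereas how reads were counted is not given in the sources used here. Expression columns as deposited were taken as the authors' FPKM, read from the values. The base mean is the authors' normalized count signal, and the authors' log2 fold change, standard error (score columns), fold ratio, p-value and q-value came with the deposited table, per the file headers.

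Reads were rebuilt from FPKM and base mean; 100.0% of values were whole within 0.05 reads, giving 16108470 to 17899391 reads per library over the listed genes. All 15016 genes entered limma 3.58.1 (R 4.3.3; trend) on log2(FPKM + 1) without filter or block, two-sided, with Benjamini-Hochberg adjustment and calls under 0.05. Intervals are limma's 95% intervals. A mean of at least 1 FPKM in either group would have kept 8 of the 10 channels, without Piezo2 and Trpv2. Fit and rebuilding were tested on simulated data. The members and lists were chosen with earlier results of these data known. Named were every channel, called list members (else the lowest adjusted p in each direction), and the 5 genes most like each PIEZO gene, of which 1 is not reported here. Alternatives were a pseudocount of 0.1, 2 filters (the other a mean of at least 0.5 FPKM over all libraries), median-ratio scaling, limma-voom, a replicate block and leaving out each library. Overlaps used GENCODE M21.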

Additional observations from a re-analysis of the deposited data

How the results depend on the processing

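The signs and calls of the channels were followed over 12 alternatives. Of 117 values for single channels, 105 kept sign and call, 7 turned sign and 5 lost the call; the 5 are Piezo2 without 1 library. The turned signs, in channels that were never called, had log2 fold changes with 1 library left out of -0.066 to 0.14 (Pkd1), -0.039 to 0.15 (Trpv4) and -0.044 to 0.024 (Tmem63b). With 1 library left out, calls over all genes ranged from 3 to 741 higher and 1 to 713 lower, most of them without soft replicate 1. The channels had 0 to 1 higher, and the list of further channels and their relatives 0 to 1 higher and 0 to 2 lower. The hair cell transduction genes had 0 to 1 higher and 0 to 1 lower, and the partners 1 to 2 higher and 0 to 3 lower. limma-voom called 444 genes higher and 530 lower, 1 hair cell transduction gene lower (Myo1c) and 2 partners lower. The filter of at least 1 FPKM in either group left 0 channels called higher, since it removes Piezo2. Median-ratio scaling called 1 partner higher, losing Pacsin3. The replicate block also called 1 partner higher, again without Pacsin3, and Piezo2 had a limma adjusted p of 0.0365 under it; same-numbered libraries did not deviate together (r = 0.00606, 0.22 and -0.21 for numbers 1 to 3; 1 of 6 libraries correlated best with its own number), so the numbers are not taken to pair the libraries. Depth limits Trpv2, with 4 to 11 reads a library; for the other channels at least 74 reads stood behind each value.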

Other observations

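Ratios between relatives within a library, chosen after their values were seen and given as values only, also lay apart between gels in some other families and overlapped in others. Tmem63b had 9.16, 9.03 and 9.60 times the FPKM of Tmem63a in soft replicates 1 to 3 and 8.08, 7.93 and 7.43 times in stiff replicates 1 to 3. Trpm7 had 2.45, 2.56 and 2.46 times the FPKM of Trpm4 in soft gels and 2.59, 2.83 and 3.47 times in stiff gels. Neither set of ratios overlapped between gels. Among single genes 24.8% had groups that did not overlap, and how often ratios of other gene pairs lie apart was not tested. For Trpv4 over Trpv2 the ratios overlapped, at 205.9, 96.4 and 92.3 in soft and 185, 67.6 and 73.1 in stiff gels, with few Trpv2 reads behind them. For Pkd2 over Pkd1 they also overlapped, at 1.81, 1.49 and 1.77 in soft and 1.30, 1.61 and 1.43 in stiff gels. Piezo1 over its overlapping neighbour Ctu2 went from 1.45, 1.68 and 1.69 in soft to 1.28, 1.06 and 0.939 in stiff gels.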
